A study of Mus musculus with 149 samples.

Results

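The genes described here are 10 genes of blood clotting that liver cells make for the plasma: the 3 fibrinogen chains (Fga, Fgb and Fgg), the enzymes prothrombin (F2) and factors VII (F7), IX (F9) and X (F10), the fibrin-dissolving zymogen plasminogen (Plg), and the anticoagulants protein C (Proc) and antithrombin (Serpinc1). They were chosen by name as clotting genes, with earlier results of these data known. All 10 were found among the 20308 mouse genes of the deposited table. The table holds 149 single cells of 1 wild-type male C57BL/6 mouse of 8 weeks, labelled as isolated primary hepatocytes. The liver was perfused and digested, the cells were spun at low speed, and single cells were caught on Fluidigm C1 microfluidic chips with traps of 3 size ranges. The groups are 80 cells of the large chip (17 to 25 µm), 30 cells of the medium chip (10 to 17 µm) and 39 cells of the small chip (5 to 10 µm). The labels name no treatment and no mutation, and all cells share 1 animal. Each chip is therefore 1 sample, so no p-value can be had and differences describe only these cells.

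Fibrinogen is a plasma protein built from paired Aα, Bβ and γ chains, each from its own gene, and thrombin cuts it so that it polymerises into the fibrin of a clot. Hepatocytes are the main source of fibrinogen, of most clotting factors and of the inhibitors that hold clotting in check, and the fibrinogen genes are classic targets of the acute-phase cytokine interleukin 6. Along the liver lobule, blood runs from the portal tract (periportal) to the central vein (pericentral), and hepatocytes along that path differ in gene expression.

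Values are normalised expected counts, a unit without a stated depth. All values of a cell summed to a median of 1.82e+06 on the large chip, 5.68e+06 on the medium chip and 5.54e+06 on the small chip. Its mouse values alone summed to medians of 1.76e+06, 9.67e+05 and 9.10e+05, so a value is not a share of the cell's total. The synthetic ERCC spike-in RNA took a median of 3.66% of a cell's values on the large chip, 82.7% on the medium chip and 82.8% on the small chip, and the cells split into a group at 6.69% or less and a group at 20.1% or more. The first group, cells with a low spike-in share, holds 57 cells of the large chip, 4 of the medium chip and 4 of the small chip. A median of 7389.5 genes had a value above 0 on the large chip, 2306.5 on the medium chip and 3087 on the small chip. At least 3 of 9 hepatocyte markers were above 0 in all 149 cells. At least 3 of 10 Kupffer cell markers were above 0 in 0 of 80 cells on the large chip (0 to 4.51%), 8 of 30 cells on the medium one (12.3 to 45.9%) and 12 of 39 on the small one (17.0 to 47.6%; exact Clopper-Pearson 95% intervals, counting error only). For 12 endothelial markers this held in 16 large-chip, 2 medium-chip and 5 small-chip cells. For 6 cholangiocyte markers it held in 23 large-chip, 0 medium-chip and 3 small-chip cells. The table's column order runs from cells rich in the periportal enzyme Cyp2f2 to cells rich in the pericentral enzyme Cyp2e1. A landmark score (pericentral minus periportal genes, 6 each) had a Spearman rho with that order of 0.94 on the large chip, 0.91 on the medium chip and 0.82 on the small chip. How the order was made, and whether clotting genes entered it, is not stated in the sources used here.

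The fibrinogen genes lie side by side on chromosome 3 (mm10, GENCODE release 21 annotation), within 42.14 kb. Fgg lies on the plus strand at chr3:83007724-83015049, Fga on the plus strand at chr3:83026076-83033627, and Fgb on the minus strand at chr3:83040141-83049863. The bases just upstream of the 3 starts (RefSeq, GRCm38.p6) are shown because these 3 genes moved together from cell to cell, and motifs found by search are in capitals.
Fga: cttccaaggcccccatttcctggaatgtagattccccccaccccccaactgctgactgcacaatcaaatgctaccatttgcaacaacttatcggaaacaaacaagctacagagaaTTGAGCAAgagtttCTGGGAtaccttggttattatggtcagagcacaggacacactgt
Fgb: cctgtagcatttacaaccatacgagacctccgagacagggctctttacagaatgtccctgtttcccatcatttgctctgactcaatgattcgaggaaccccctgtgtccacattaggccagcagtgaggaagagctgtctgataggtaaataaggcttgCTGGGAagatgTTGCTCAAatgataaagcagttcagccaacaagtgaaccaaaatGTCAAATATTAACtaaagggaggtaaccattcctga
Fgg: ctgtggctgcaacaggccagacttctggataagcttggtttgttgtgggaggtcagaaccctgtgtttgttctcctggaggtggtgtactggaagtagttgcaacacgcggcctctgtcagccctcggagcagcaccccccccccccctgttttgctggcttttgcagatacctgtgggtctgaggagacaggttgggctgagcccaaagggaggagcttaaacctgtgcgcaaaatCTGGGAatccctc
Each window is that part of the upstream 250 bases which lies before the start in both annotations, so the Fga window, chr3:83025903-83026075, is 173 bases long. The Fgb window is chr3:83049864-83050113, read on the minus strand, and the Fgg window is chr3:83007474-83007723. All 3 held CTGGGA, the core of the element through which interleukin 6 acts on the human and rat fibrinogen genes, ending 39, 86 and 8 bases before the end of the Fga, Fgb and Fgg windows. Fga and Fgb also held the C/EBP motif TTGCNNAA, and Fgb held the longer HNF1 motif (GTTAAT, any 2 bases, then TTNAC) on the opposite strand. Both strands were searched, and in Fgb the shorter HNF1 motif GTTAAT falls inside it. Among 32851 mouse promoters, 26.998% held CTGGGA within 250 bases, 9.56% held TTGCNNAA, 6.43% held GTTAAT and 0.103% held the longer HNF1 motif. RefSeq windows were searched for 8 of the 10 genes, as Plg had no window in the source and Proc was left out of the search. Of these 8, 5 held CTGGGA (with F9 and F10), 3 held TTGCNNAA (with F9) and 0 held TATAAA, which 12.4% of promoters held. These matches describe letters only.

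Fibrinogen transcripts had some of the highest values in these cells. By the mean value, not divided by length, over all 149 cells, Fgb ranked 14, Fgg 20 and Fga 37 among the 20308 genes, and all 3 were above 0 in each of the 149 cells (exact 95% interval of the share, 97.6 to 100%). In the 57 large-chip cells with a low spike-in share, the 3 chains took 0.923 to 4.45% of a cell's mouse values, with a median of 3.04%. In the 23 other cells of that chip the median was 1.17%.

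Fgb, the Bβ chain, ran between 270.4 and 37888 on the large chip with a median of 19809, between 56.7 and 63185 on the medium chip with a median of 5192, and between 42.6 and 63426 on the small chip with a median of 7807. Fgg, the γ chain, ran between 921 and 30686 on the large chip (median 15205), between 91.6 and 43405 on the medium chip (median 2188) and between 17.4 and 45574 on the small chip (median 4547). Fga, the Aα chain, ran between 424 and 13516 on the large chip (median 6425), between 68.2 and 29409 on the medium chip (median 2025) and between 39.6 and 29316 on the small chip (median 3638). For each chain the chips overlapped widely, and the medium and small chips held both the lowest and the highest cells. Per kilobase of transcript, in the 57 large-chip cells with a low spike-in share, the median level was 10448 for Fgg, 6580.2 for Fgb and 2809.95 for Fga (3490 for Fga with its shorter transcript).

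The plot of values by chip shows how the scatter followed the spike-in share. In the 57 large-chip cells with a low share, Fgb spanned 7665 to 36263, Fgg 5791 to 30686 and Fga 2354 to 13516. The SD over these cells on the log2 scale was 0.62 for Fgb, 0.59 for Fgg and 0.74 for Fga.

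**Figure D1:**
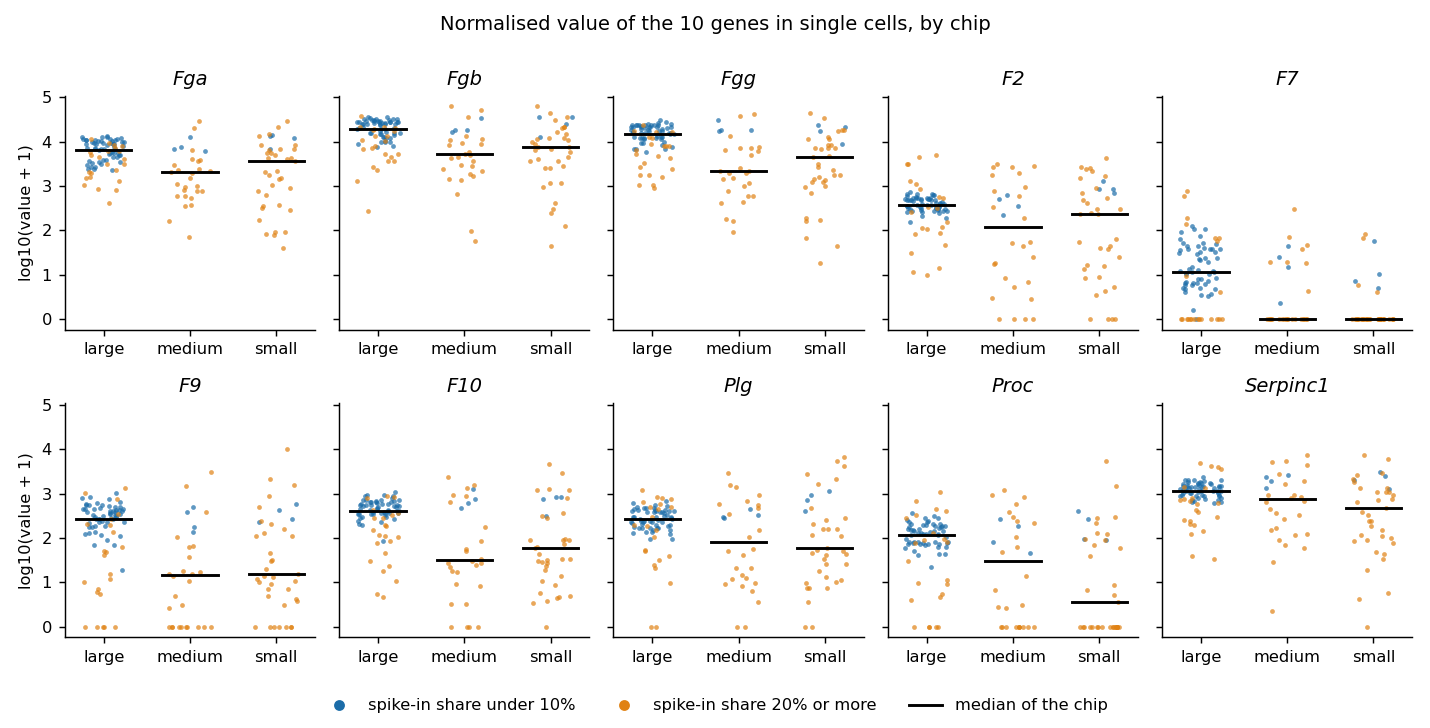
Normalised value of each of the 10 genes on the axis log10(value + 1), 1 point per cell, with cells of the large, medium and small chip from left to right; blue points have a spike-in share under 10%, orange points 20% or more, and the black line is the chip's median. The blue large-chip cells form narrow bands for the chains, Fgb between 7665 and 36263, and wider ones for F9 (17.8 to 1011) and F7 (0 to 122). The orange cells spread over the whole range and reach 0 for 7 of the 10 genes.

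Among the proteases, prothrombin and factor X were seen in most cells and factor VII in the fewest. F2, the zymogen of thrombin, ran between 8.64 and 4943 on the large chip (median 379.7), between 0 and 3124 on the medium chip (median 121) and between 0 and 4413 on the small chip (median 230.3). In the 57 large-chip cells with a low spike-in share F2 kept to a span of 154 to 739.8, and the 6 large-chip cells at 1000 or more all had spike-in shares of 29.8 to 65.5%. The highest of them, at 4943, also held 599.7 of F7, while F7 reached at most 122 in the low-share cells.

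F10, which with its cofactor turns prothrombin into thrombin, ran between 3.58 and 1069 on the large chip (median 406), between 0 and 2427 on the medium chip (median 31.02) and between 0 and 4653 on the small chip (median 57.9). F9, the factor missing in haemophilia B, ran between 0 and 1351 on the large chip (median 272), between 0 and 3020 on the medium chip (median 13.5) and between 0 and 10000.5 on the small chip (median 14.1). The highest F9 and F10 values thus came from the small chip, whose medians were far below those of the large chip. F7, the partner of tissue factor that starts clotting, was above 0 in 65 of 80 large-chip cells (81.2%, 70.97 to 89.1%), 12 of 30 on the medium chip (40.0%, 22.7 to 59.4%) and 8 of 39 on the small chip (20.5%, 9.30 to 36.5%). It was above 0 in 56 of the 57 large-chip cells with a low spike-in share, at a median of 12.1. F7 and F10 are neighbours on the plus strand of chromosome 8 (chr8:13026034-13035809 and chr8:13037308-13056676), yet their rho over those 57 cells was 0.031, and over all cells of a chip it was 0.37 (large), 0.33 (medium) and 0.41 (small).

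Of the 10 genes, antithrombin had the highest mean value after the fibrinogen chains. Per kilobase its median was above those of the 6 others on the large chip and the medium chip, but on the small chip it was 94.0, against 116 for F2. Serpinc1, which blocks thrombin and activated factor X, ran between 31.8 and 4842 on the large chip (median 1135), between 1.29 and 7411 on the medium chip (median 740.2) and between 0 and 7499 on the small chip (median 467). It ranked 117 of 20308 by its mean value, against 220 for F2, 318 for Plg, 331 for F10, 423 for F9, 841 for Proc and 4169 for F7. Proc, the precursor of the protease that cuts factors V and VIII, was above 0 in 75 of 80 large-chip cells (93.8%), 20 of 30 medium-chip cells (66.7%) and 20 of 39 small-chip cells (51.3%), with medians of 115, 29.2 and 2.57. Plg ran between 0 and 1187 on the large chip (median 263), between 0 and 2858 on the medium chip (median 79.5) and between 0 and 6633 on the small chip (median 59.5). Per kilobase, in the 57 large-chip cells with a low spike-in share, the medians were 261 for Serpinc1, 198 for F2, 195 for F10, 121 for F9, 96.9 for Plg, 81.7 for Proc and 6.498 for F7. Plg overlaps Slc22a3, and Serpinc1 overlaps Gm37072 and Zbtb37, on the other strand, Fgg likewise overlaps Gm30097, and Serpinc1 overlaps Gm37729 on its own strand. Whether counting used strand is not given in the sources used here, so reads of these partners may be shared.

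Between chips, the ratios of the 10 genes were spread over both directions and changed with the cells used. Over all cells, large over small, the median log2 ratio of means was 0.082 over the 10 genes and 0.72 over all 8813 measured genes, a measured gene being above 0 in at least 20% of cells. Past 2-fold, F7 was higher on the large chip (mean 41.8, against 5.97 on the small chip, log2 ratio 2.62) and Plg was lower (306.9 against 733, log2 ratio -1.25). That is 1 of 10 genes higher, where 41.9% of measured genes were, and 1 of 10 lower, where 12.8% were. Large over medium, the median was 0.36 over the 10 genes and 0.59 over all measured genes. There, F7 alone was past 2-fold (41.8 against 19.9, log2 ratio 1.03), where 37.5% of measured genes were higher and 12.7% lower.

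The sign of these medians depended on the cells used. In cells with a low spike-in share, 57 of the large chip against 4 of the small chip, the large over small median was -0.52 over the 10 genes and -0.031 over all measured genes, and F2 (416 against 937.6, log2 ratio -1.17) and Plg (300.2 against 807, log2 ratio -1.42) were lower on the large chip by more than 2-fold. F2 was between 154 and 739.8 in those large-chip cells and between 700.1 and 1323 in the 4 small-chip cells, so the ranges overlapped at one end. Plg was between 93.2 and 672 on the large chip and between 405 and 1159 on the small chip. Of the measured genes, 16.9% were higher by that much and 14% lower. Against the 4 medium-chip cells of that kind, the median was -0.11 over the 10 genes and -0.14 over all measured genes, and 0 of the 10 genes passed 2-fold, where 17.8% of measured genes were higher and 15.1% lower. Spike-in share, genes above 0 and markers of Kupffer cells, endothelial cells and cholangiocytes also differ between the chips, and their part in these ratios was not tested. The summed value of the 10 Kupffer markers ran from 0 to 494 on the large chip, where Clec4f, Vsig4, C1qc, Marco and Timd4 were at 0 in all cells, from 0 to 60672.5 on the medium chip and from 0 to 86341 on the small chip. On the small chip the 3 chains took a median of 1.27% of mouse values in the 12 cells with at least 3 Kupffer markers and 1.85% in the 27 others. On the medium chip it was 0.599% in 8 such cells and 1.30% in the 22 others. On the large chip it was 3.08% in 23 cells with at least 3 cholangiocyte markers and 1.79% in the 57 others. For endothelial markers on that chip it was 1.82% in 16 cells and 2.40% in the 64 others.

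The 3 fibrinogen chains followed each other from cell to cell. The Spearman rho of Fgb with Fgg was 0.92 over 80 large-chip cells, 0.84 over 30 medium-chip cells and 0.79 over 39 small-chip ones. Fga with Fgb had 0.82, 0.85 and 0.79, and Fga with Fgg 0.83, 0.79 and 0.76, in the same chips. The mean of the 3 pairs was 0.86 on the large chip, 0.83 on the medium chip and 0.78 on the small chip. The cells of a chip share a capture, a library preparation and differences in depth, so these rhos are descriptions.

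In the 57 large-chip cells with a low spike-in share the co-variation was tighter, with a rho of 0.94 for Fga with Fgb, 0.92 for Fga with Fgg and 0.95 for Fgb with Fgg. There, each chain's closest and next-closest genes among 8812 others were the other chains. With the position in the column order held constant, the partial rhos were 0.91, 0.87 and 0.91. In all large-chip cells the chains held ranks 1 to 3 for each other, on the medium chip ranks 1 to 21, and on the small chip ranks 1 to 6. Cells that deviated in one chain thus deviated in the others, also among cells at the same place in the order.

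**Figure D2:**
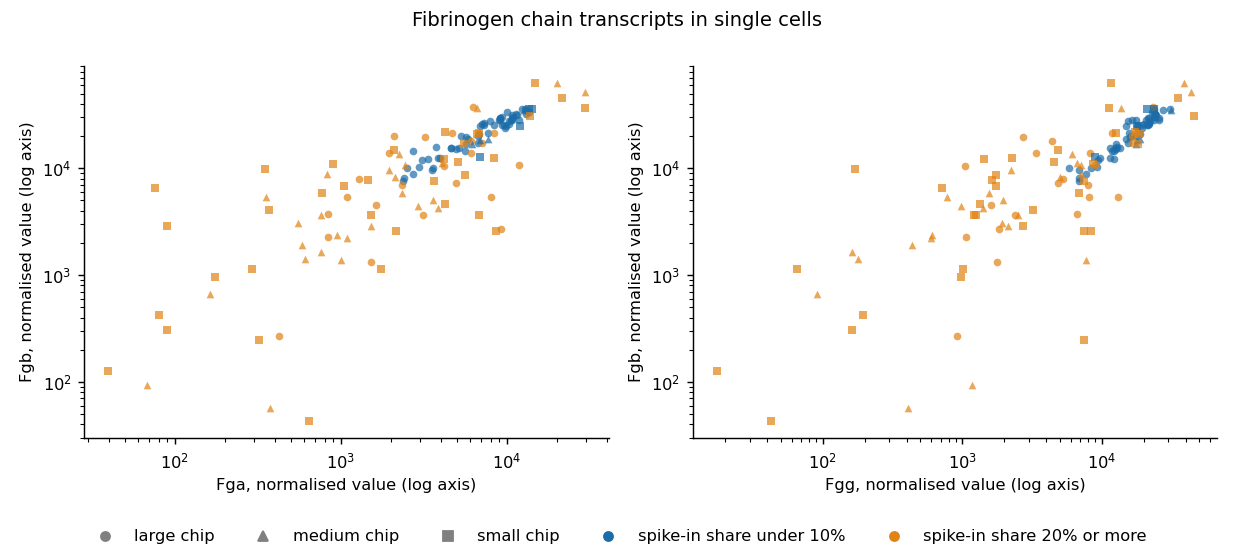
Fgb against Fga (left) and against Fgg (right), 1 point per cell on log axes of normalised value; circles are large-chip, triangles medium-chip and squares small-chip cells, with a spike-in share under 10% in blue and 20% or more in orange. The blue points lie on a narrow line (rho 0.94 and 0.95 on the large chip), and the orange points scatter around it.

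The proportions of the chains varied little in the 57 low-share large-chip cells. Fgb over Fga was 2.43 to 5.28 with a median of 3.09, Fgg over Fga was 1.53 to 4.35 with a median of 2.33, and Fgb over Fgg was 1.01 to 1.79 with a median of 1.26. Set against these medians, 0 of 65 cells with a low spike-in share had chains out of proportion by over 4-fold (0 to 5.52%). In cells with a high share it was 33 of 84 (39.3%, 28.8 to 50.5%), made up of 5 of 23 on the large chip, 11 of 26 on the medium chip and 17 of 35 on the small chip.

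Single cells show the size of it. Large-chip cell 36, with a spike-in share of 79.1%, held 9243 of Fga, 2693 of Fgb and 1820.3 of Fgg. Small-chip cell 39, with 48.9%, held 349 of Fga, 9933 of Fgb and 171 of Fgg. Over all small-chip cells Fgb over Fga ran from 0.068 to 85.9. Among high-share cells the mean pairwise rho was 0.56 on the large chip, 0.74 on the medium chip and 0.72 on the small chip, below the 0.94 of the low-share large-chip cells. With cells rescaled to a common mouse sum, these were 0.31, 0.57 and 0.52, against 0.93 in the low-share large-chip cells. Spike-in share, genes above 0 and chain imbalance move together here, and their parts were not tested.

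**Figure D3:**
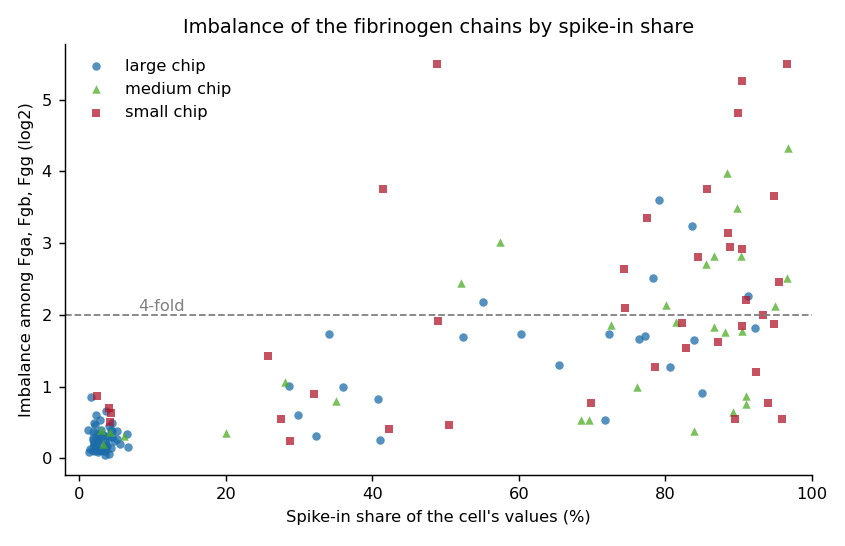
Spread of the 3 chains within a cell (vertical axis, log2, after dividing by the median proportions of the low-share large-chip cells) against the spike-in share of the cell (horizontal axis, %), 1 point per cell, coloured by chip; the dashed line is 4-fold. All 65 cells at 6.69% or less lie below 0.87, and 33 of the 84 others lie above the line.

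The other clotting genes followed fibrinogen to unequal degrees. With the mean z-score of the 3 chains, Serpinc1 had a rho of 0.75 on the large chip, 0.67 on the medium chip and 0.75 on the small chip. The median of all measured genes was 0.25, 0.36 and 0.26 in the same chips, and 4.91, 21.6 and 7.16% of them reached 0.5. In the 57 low-share large-chip cells Serpinc1 had 0.81. In those 57 cells F10 had 0.54, F2 0.50, Plg 0.49, F9 0.42, Proc 0.33 and F7 0.11, where the median of all measured genes was 0.022. With the position held constant these became 0.67 for Serpinc1, 0.34 for F10, 0.31 for Plg, 0.28 for F2, 0.24 for F9, 0.14 for Proc and 0.038 for F7. Of the 42 other pairs of the 10 genes in those cells, F2 with Plg was the closest that held no chain, at 0.69, and F7 with Plg the lowest, at -0.19.

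The genes nearest to fibrinogen outside the 10 were mostly other secreted liver proteins. By the mean rho over the 3 chips they were Apoa1, the main protein of high-density lipoprotein (0.83), Hp, the haemoglobin binder haptoglobin (0.79), Serpina1e (0.78), Ttr, the thyroxine carrier transthyretin (0.78), and Serpina3k (0.77). On the large chip alone they were Apoa1 (0.85), Serpina1a (0.82), Hp (0.81), Sdc4, a cell-surface proteoglycan (0.79), and Serpina1d (0.79). Serpina1 and Serpina3 genes have near-identical copies and their reads may be divided among these, so which copy is meant is uncertain. In the 57 low-share large-chip cells, a selection made after the values were seen, kininogen (Kng1), the source of bradykinin and a cofactor of contact activation, had the highest rho (0.91, and 0.85 with the position held constant), above Apoa1 (0.82), albumin (Alb, 0.80), Mt2 (0.79) and Mt1 (0.79).

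Along the column order, all 10 genes were higher toward the Cyp2f2-rich, periportal-like start. Each had a negative rho with position in all 3 chips, and the mean over chips was -0.48 ± 0.081 for Fgb, -0.47 ± 0.13 for Fga, -0.45 ± 0.19 for Fgg and -0.48 ± 0.059 for Serpinc1 (SD over 3 chips). It was -0.37 for F10, -0.33 for Plg, -0.29 for F9, -0.27 for Proc, -0.25 for F2 and -0.23 for F7. Calling a gene graded when the sign is the same in 3 chips and the mean is at least 0.2 in size, 10 of 10 were graded toward the start, where 15.4% of the 8813 measured genes were, and 0 toward the end, where 0.692% were. Along the landmark score 9 of 10 were graded the same way, where 16.5% of measured genes were, and F7 was not (mean rho -0.17).

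**Figure D4:**
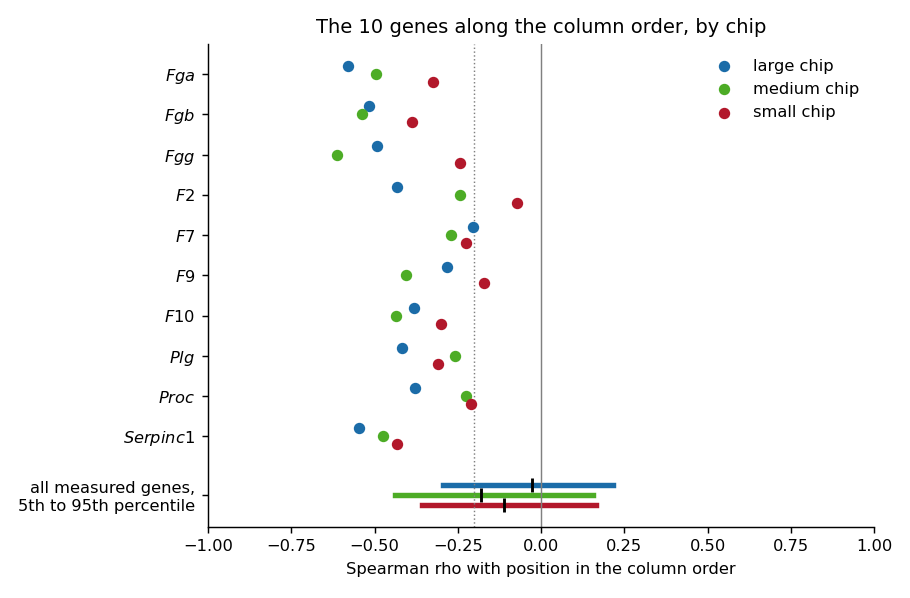
Spearman rho of each of the 10 genes with the position in the column order (horizontal axis), 1 point per chip, with the large, medium and small chip in blue, green and red; bars at the bottom span the 5th to 95th percentile of all measured genes in each chip and the black tick is their median (-0.026, -0.18 and -0.11). All 30 points lie left of 0, with Serpinc1 at -0.55, -0.47 and -0.43 and F2 at -0.072 on the small chip.

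The number of genes detected also ran along the order. The number of genes above 0 had a rho with position of 0.22 on the large chip, -0.41 on the medium chip and -0.20 on the small chip, and the median rho of all measured genes was -0.026, -0.18 and -0.11 there. With the number of genes above 0 held constant, 8 of 10 were graded toward the start, where 6.48% of measured genes were. With cells at 50% spike-in or more left out, which leaves 7 medium-chip and 12 small-chip cells, 3 of 10 were graded, where 12.5% of measured genes were.

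In the 57 low-share large-chip cells more genes were above 0 toward the end (rho 0.37), and 9 of 10 genes had a rho of -0.2 or below, where 16.7% of measured genes did. The rho was -0.67 for Serpinc1, -0.66 for Fgg, -0.64 for Fga, -0.64 for Fgb, -0.49 for F10, -0.49 for F2, -0.43 for Plg, -0.40 for F9, -0.37 for Proc and -0.13 for F7. The spike-in share also ran along the order in these cells, with a rho of -0.61, and its part was not tested.

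The chains did not fall off evenly along the order. Over 5 successive bins of those cells (12, 12, 11, 11 and 11), the median of Fgb was 25217, 28266, 31558, 16745 and 10125. Fga had 8032, 9578, 10604.7, 5575 and 3516, and Fgg had 18989.5, 21796, 23805 and then 12626 and 8344. Cyp2e1, the pericentral landmark, had medians of 14.8, 18.1, 56.7, 13676 and 16789 in the same bins, and Cyp2f2, the periportal one, had 4801, 5098, 5047, 12.9 and 4.75. In these cells, which were set apart after the data were seen, the chains were highest in the middle bin, where Cyp2e1 already reached 2572 in single cells, and lowest in the last. Over 5 bins of all 80 large-chip cells (16 each), Fgb had medians of 25217, 28266.0, 18991, 14135 and 12187, so the second bin was highest. Fga and Fgg were likewise highest in the second of those bins, at 9227 and 21796.

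As a share of a cell's mouse values, the 3 chains together had medians of 3.08, 3.46, 3.74, 1.98 and 1.199% in the 5 bins. The middle bin covers ranks 30 to 58 of the 80 large-chip cells, the stretch that also holds most of the cells with a high spike-in share, which run from rank 4 to rank 57 with a median rank of 44. Fewer low-share cells stand behind each place in that stretch than elsewhere.

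**Figure D5:**
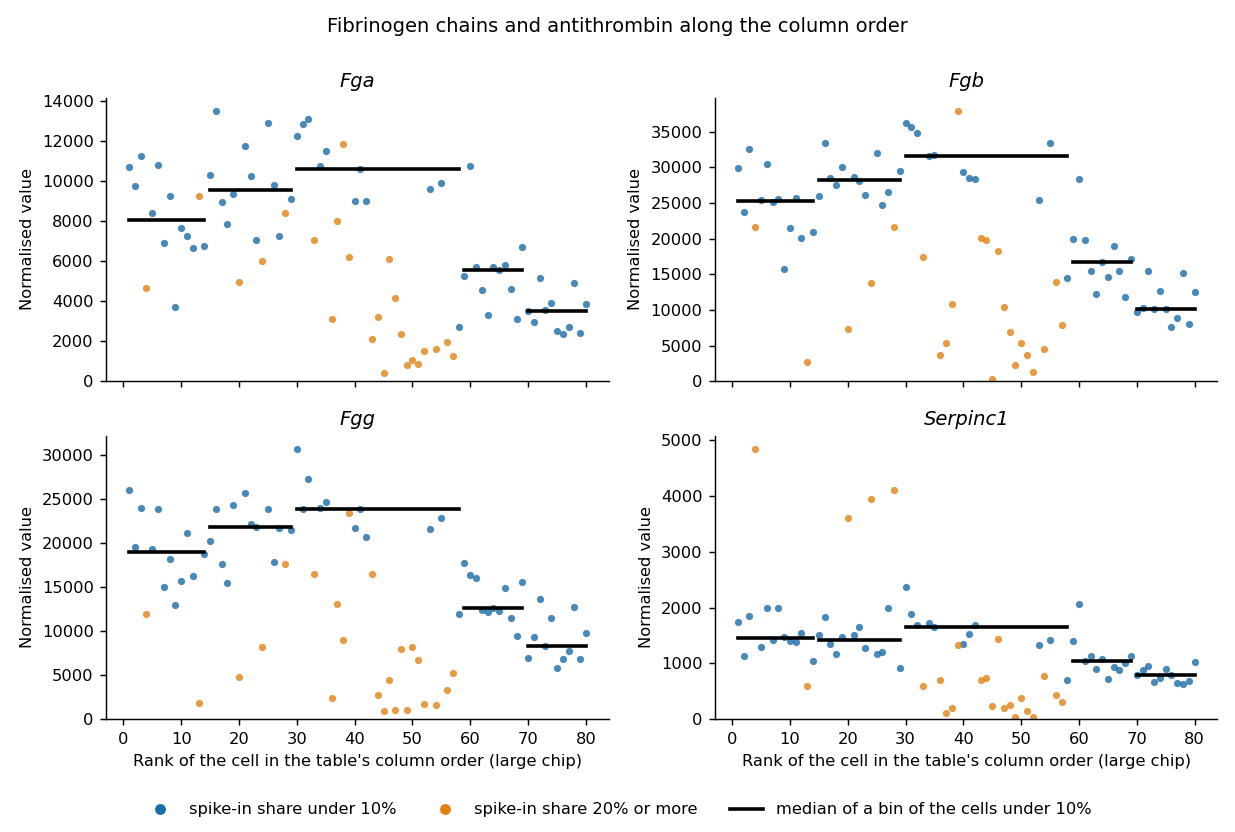
Normalised value of Fga, Fgb, Fgg and Serpinc1 (vertical axis) in the 80 large-chip cells by rank in the column order (horizontal axis); blue points have a spike-in share under 10%, orange points 20% or more, and black lines are the medians of 5 successive bins of the blue cells. The Fgb lines lie at 25217, 28266 and 31558 and then at 16745 and 10125, and the orange cells lie at ranks 4 to 57.

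Between the ends, Fgb had a median of 10125 in the last bin and 25217 in the first, a 2.49-fold difference with no overlap of the cells. Serpinc1 had 794 in the last bin, between 628 and 1022, and 1448 in the first, between 1039 and 1997, which is 1.82-fold with no overlap. Over all 80 large-chip cells the differences were 2.07-fold for Fgb and 1.78-fold for Serpinc1, and the cells of the end bins overlapped. For the other 8 genes the cells of both bins overlapped, and the first bin was higher by 2.29-fold for Plg, 2.28-fold for Fga, 2.28-fold for Fgg, 2.05-fold for Proc, 1.84-fold for F10, 1.71-fold for F9, 1.68-fold for F2 and 1.55-fold for F7. Albumin, for scale, was 3.60-fold higher in the first bin, and Cyp2f2 835-fold. Cyp2f2 and Cyp2e1 were also without overlap between these bins. The share of all measured genes without overlap was not counted, so its absence for Fgb and Serpinc1 is not read as particular to them.

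The enzymes had profiles of their own in those bins. F10 had medians of 599.1, 546, 482, 488 and 325, so its first bin was highest. F9 had 321, 458, 393, 348 and 187, and F2 had 491, 435, 511, 300.6 and 292. F7 had 9.02, 36.8, 11.2, 22.6 and 5.46 and ranged from 0 to 122 over the cells, a spread wider than any of its steps.

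The chains also shifted slightly against each other along the order. In those 57 cells Fgb over Fga had a rho with position of 0.25, Fgg over Fga 0.38 and Fgb over Fgg -0.27. Fga thus took a somewhat smaller part of the 3 toward the pericentral-like end, within ratios that spanned 1.53 to 4.35 for Fgg over Fga.

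Of 41 further genes of clotting and fibrinolysis, 27 were measured, and 13 of these were graded toward the start and 0 toward the end, where 15.4% and 0.692% of measured genes were. Along the landmark score it was 16 of 27, where 16.5% of measured genes were graded the same way. Along the order, their median of the mean rho was -0.19, against -0.10 over all measured genes. Among contact and intrinsic factors 4 of 6 were graded: Kng1 (mean rho -0.43), its near-copy Kng2, between which reads may be divided (-0.35), F12, which starts the contact pathway (-0.33), and Klkb1, plasma prekallikrein (-0.23). F8 (-0.040) and F11 (-0.17) were not. Of the anticoagulants 4 of 5 were graded, led by Serpind1, heparin cofactor II (-0.41), with Hrg, the heparin binder histidine-rich glycoprotein, at -0.32. The exception was Pros1, the cofactor of protein C (-0.074).

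Fibrinolysis and fibrinogen-like genes were more mixed. In the fibrinolysis list 3 of 7 were graded, among them Pzp, a broad protease inhibitor (-0.32), and Cpb2, which slows fibrinolysis (-0.25). Apoh, a phospholipid-binding plasma protein, had -0.17 and Fgl1, the fibrinogen-like hepatokine, had -0.19, and neither was graded. Of the common pathway 0 of 2 were graded. Along the landmark score Apoh (-0.24), Fgl1 (-0.22) and F13b, a carrier subunit of the fibrin cross-linking factor (-0.21), did pass the rule. F5, the cofactor of factor X, had a mean of -0.10 and a rho of 0.33 in the 57 low-share large-chip cells, opposite in sign to the 10 genes.

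Of the genes that serve the vitamin K cycle, on which F2, F7, F9, F10 and Proc depend for their carboxylated residues, 1 of 4 was graded, the reductase Vkorc1 (-0.34). The carboxylase Ggcx had -0.079 on the large chip, -0.41 on the medium chip and 0.090 on the small chip. Gas6, itself a vitamin K-dependent ligand, had the highest mean rho of the 27 (0.14), and it was above 0 in 43 of 80 large-chip cells, 4 of 30 medium-chip cells and 8 of 39 small-chip cells. Lman1, the cargo receptor for factors V and VIII, was graded (-0.32). F13a1, Serpina5 and Plat were listed at 0 in every cell.

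Kng1 had the highest mean value of the 41, not divided by length. It ran between 47.6 and 22571 on the large chip (median 4075), between 2.99 and 12012 on the medium chip (median 804.5) and between 0 and 11460.0 on the small chip (median 1588). Pzp had medians of 2353 on the large chip, 568 on the medium chip and 2614 on the small chip, and Apoh 1932, 478 and 495 in the same chips. Serpind1 had medians of 712 on the large chip, 270.1 on the medium chip and 32.6 on the small chip. The median of Pzp was thus highest on the small chip, while those of Kng1, Apoh and Serpind1 were highest on the large chip.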

How the data were processed

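RNA was measured in 149 single cells of 1 mouse. Per the submitters' processing notes, CASAVA 1.8.2, Bowtie 0.12.9 and RSEM 1.2.3 were used with mm10. The authors deposited 1 table of normalised expected counts, used here as a signal without a stated depth; its name mentions SCnorm and WaveCrest, which the labels do not describe. Whole reads could not be recovered, so the depth and its counting error are unknown. Columns were mapped by title and none was left out or identical. The labels give no run or date per chip. No doublet caller was run.

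Spearman rho was computed within chips. Ratios of means used a pseudocount of 1. Genes above 0 in 20% of cells were measured. Cells with a spike-in share under 10% were set apart after seeing the data. No test was run. The 10 genes and all lists were chosen with earlier results of these data known; further genes were named by mean (8), by mean rho (2 per direction) and by likeness to fibrinogen (5). Some listed genes are not reported singly. Scripts (Python 3.11.15 with matplotlib 3.10.9, scipy 1.17.1, pandas 2.3.3 and numpy 2.4.6) were tested on simulated data. Positions are from GENCODE release 21, and promoter windows from RefSeq. Alternatives covered the pseudocount, rescaling, Pearson r, a partial rho, chips and spike-in limits.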

Additional observations from a re-analysis of the deposited data

How the results depend on the processing

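No paired analysis was possible because replicate numbers only name cells and no result comes from a test. The large over small median log2 ratio of the 10 genes (0.082) was -0.17 with cells rescaled to a common mouse sum, -0.35 under 50% spike-in, -0.52 under 10% and 1.93 as a ratio of medians. The large over medium median (0.36) was -0.34, -0.75, -0.11 and 1.94 under the same settings. The mean pairwise rho of the fibrinogen chains kept its sign throughout. On the large chip (0.86) it was 0.80 as Pearson r, 0.79 rescaled, 0.81 with the position held constant, 0.92 under 50% spike-in, 0.94 under 10% and 0.56 at 10% or more. On the medium chip (0.83) it was 0.66 rescaled, 0.71 with genes above 0 held constant, 0.76 with the position held constant, 0.77 under 50% and 0.74 at 10% or more. On the small chip (0.78) it was 0.55 rescaled, 0.68 with genes above 0 held constant, 0.94 under 50% and 0.72 at 10% or more. Under 50% spike-in, graded genes numbered 3 of 10 along the order, 2 of 10 along the landmark score and 6 of the other coagulation genes; only 7 medium-chip and 12 small-chip cells are then left. Under the other settings run, the counts of the 10 genes were 8 to 10. The settings with the limit of 10% and with the position held constant were chosen after seeing the data, and the cause of these moves was not tested. The depth is unknown, so a value of 0 cannot be read as absence, and 1 mouse allows no statement about other animals.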

Other observations

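Of 14 listed regulators of liver genes, transcription factors and parts of the interleukin 6 receptor, 12 were measured and 1 of these was graded toward the periportal-like start, where 15.4% of measured genes were. It was Foxa3, a forkhead factor of hepatocytes (mean rho -0.27), and 0 were graded toward the end. Along the landmark score 4 of 12 were graded toward the periportal side, where 16.5% of measured genes were, namely Foxa3 (-0.33), Nr1h4 (-0.24), Cebpa (-0.23) and Hnf4a (-0.22). Along the order the mean rhos of the 12 ran from -0.27 to 0.22. Hnf4a, a nuclear receptor that many hepatocyte genes depend on, had -0.28 on the large chip, -0.26 on the medium chip and 0.078 on the small chip. Cebpa, whose family binds the C/EBP motif, had -0.33, -0.14 and -0.062 there. Nr1i3, the xenobiotic receptor CAR, had 0.67 on the large chip, -0.11 on the medium chip and 0.099 on the small chip, so its sign differed between chips. These are transcript levels and say nothing of protein activity.

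A few large-chip cells had far more prothrombin transcript than the rest, and higher values of some other clotting genes. Such F2 values were confined neither to that chip nor to a high spike-in share. F2 was also at 1000 or more in 6 of 26 high-share medium-chip cells and 7 of 35 high-share small-chip cells. Among low-share cells it was so in 0 of 4 on the medium chip and in 1 of 4 on the small chip, at 1323. On the large chip 6 of 80 cells had F2 at 1000 or more, and in the 57 low-share cells the highest was 739.8. In the 4 highest of the 6 cells F2 was 4943, 4570.3, 3209 and 3098. As a share of mouse values, F2 took 0.127, 0.139, 0.105 and 0.087% there, against a median of 0.023% in the low-share cells, so these cells stood apart on that scale too. Their spike-in shares were 29.8, 40.8, 40.99 and 35.99%. By value, Fga in the same 4 cells, at 4640.2, 6028, 8399 and 6203, lay within the span of the low-share cells. As a share of mouse values, the 3 fibrinogen chains took 0.976, 0.855, 1.56 and 1.89% in these 4 cells. In the low-share large-chip cells that share was 0.923 to 4.45%, with a median of 3.04%. Serpinc1, at 4842, 3955 and 4113 in the first 3 of the 4 cells, was above its highest low-share value of 2367. Proc, at 1071, 412 and 679.8 in 3 of the 4, was above its highest low-share value of 374. The mouse values of the 4 cells summed to 3.90e+06, 3.28e+06, 3.05e+06 and 3.56e+06, against at most 1.84e+06 in the low-share large-chip cells. The excess of Serpinc1 and Proc is thus one of values, and need not hold as a share of mouse values. The part of the spike-in share in this was not tested.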
